A study of Mus musculus with 15 samples.

Results

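Encenicline and donepezil act on the same cholinergic pathway at different points, and their hearts were compared directly here, 5 libraries against 5 of a series of 15. The mice were C57BL/6, labelled WT, aged 8 to 10 weeks at transverse aortic constriction (TAC), in which a band narrows the aorta and loads the left ventricle. Drugs were started 4 weeks after banding, in drinking water, at 2 mg/kg/day for encenicline and 5 mg/kg/day for donepezil, with 15 mice randomised to each arm; the labels give the hearts as TAC at 8 weeks. The other 5 libraries came from banded mice on physiological saline, and no unbanded heart was analysed here. All groups therefore carry the same pressure overload, the 2 drugs differ in dose as well as in target, and each drug was given at 1 dose. Libraries were assigned to groups by title. The treatment field names another group for 2 of them, saline for donepezil 1 and donepezil for encenicline 1. The labels do not say that each library is a different mouse, so the p-values measure the spread between these libraries, which may be technical.

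The vagus nerve releases acetylcholine onto the heart, where the muscarinic receptor Chrm2 opens the potassium channel built from Kcnj3 and Kcnj5 and slows the rate. Donepezil blocks acetylcholinesterase, encoded by Ache, and so raises acetylcholine at every receptor that binds it. Encenicline, also named EVP-6124, is an agonist of the alpha7 nicotinic receptor encoded by Chrna7, which on macrophages is known for damping cytokine release. The series asks which of these approaches does more for the failing heart. A group of the genes that separated the drugs below belongs to the fasting response. In heart muscle, PPAR nuclear receptors, the glucocorticoid receptor and FoxO factors switch on genes that favour fatty acids over glucose as fuel, and Pdk4 is a textbook target of all of them.

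Of 54532 genes in the table, 13396 reached 0.5 FPKM (fragments scaled for gene length and for library depth) in at least 5 of the 15 libraries and were tested. Working back from FPKM to whole reads gave 14496147 to 17176086 reads in genes per library, and the median standard error (SE) of a log2 fold change was 0.11. A gene was called at a Benjamini-Hochberg adjusted p under 0.05 in limma's moderated test on log2(FPKM + 0.5), adjusted over all genes tested. All log2 fold changes are encenicline minus donepezil on that scale, which understates the change of genes near the pseudocount of 0.5. The labelled tissue was borne out by its markers: all 10 cardiomyocyte markers were tested, with Myh6, the main adult mouse myosin heavy chain, at 2525 to 2981 FPKM with encenicline and 2292 to 2795 with donepezil. Donepezil 4 stood apart from every other library in matrix, monocyte and fibroblast genes, as given with those lists below, and had the lowest mitochondrially encoded share of reads, 17.4% against 23.2 to 26.2% in the other donepezil libraries. Since these are whole-tissue libraries, fewer cells of a type and less RNA per cell cannot be told apart.

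Encenicline hearts held less RNA than donepezil hearts of the fasting genes Pdk4, Angptl4 and Ucp3, the glucocorticoid-induced genes Rasd1 and Cebpd and the heme-degrading enzyme Hmox1, and more of Gal3st3, Rrad, Fam78a and Lrrc3b. Fasting genes were the list with most calls, 8 of 15 tested. All lists were chosen with earlier results of these data known, so list counts beside the share of all genes are descriptions. Of the genes tested, 125 were called (0.933%), 59 higher with encenicline (0.44%) and 66 lower (0.493%), and 122 of them are protein coding. At least a 2-fold difference was reached by 22 (0.164%), 10 higher and 12 lower. In 116 of the 125 the 5 encenicline libraries lay wholly above or below the 5 of donepezil, against 4.07% of all genes tested. Of these, 61 lay below (2.07% of all genes) and 55 above (2% of all genes). The calls were picked for a difference between these same libraries, so this separation follows in part from the choice and is no further support. The median log2 fold change over all genes was 0.00, with 50.8% above 0. An unadjusted p under 0.05 in limma was reached by 2010 of the genes tested, 15%. That is the share to set beside the unadjusted counts of the lists below. The share of calls on the higher side was 47.2%, but 35.8% when libraries were scaled without mitochondrially encoded genes (34 higher, 61 lower). As TPM it was 32.1% (17 higher, 36 lower), where the median over all genes was -0.07. Both settings replace the scaling of the deposited FPKM, under which that median was 0.00. The number of calls rests on the group labels: grouping by the treatment field left 0 calls in limma, with 1391 genes at an unadjusted p under 0.05, and leaving out donepezil 1 and encenicline 1 left 27. Leaving out 1 library at a time gave 48 to 177 calls, and all 125 genes kept their sign in every alternative in which they were tested. The alternatives reuse the libraries that picked these genes, so the kept signs are no independent support.

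**Figure D1:**
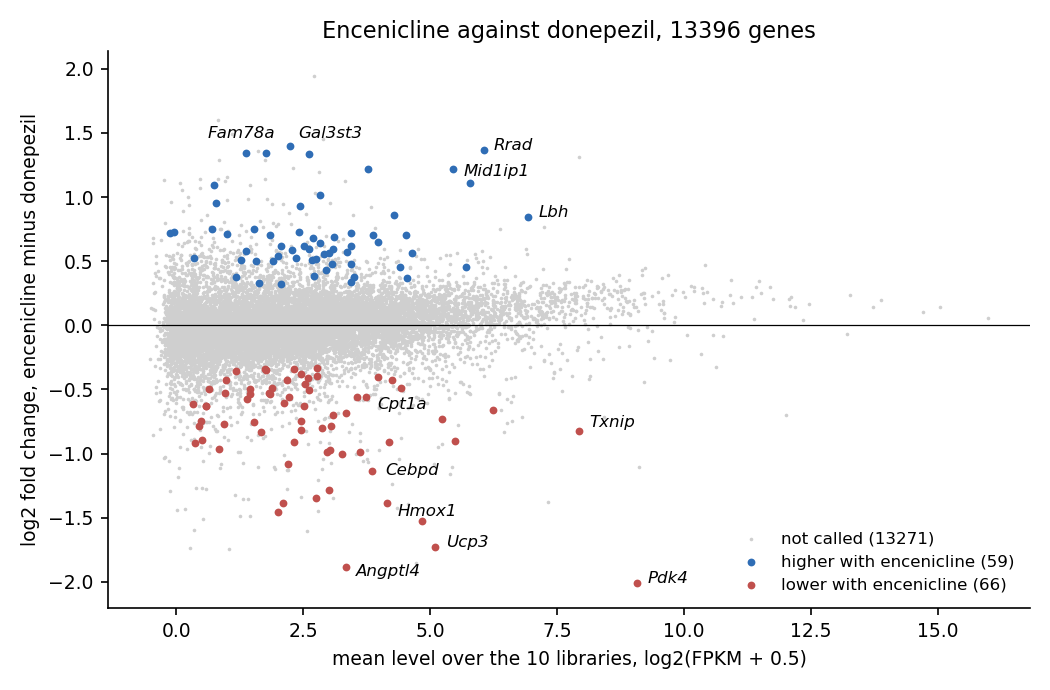
Each point is 1 of the 13396 genes, by its mean level over the 10 libraries, log2(FPKM + 0.5), and its log2 fold change, encenicline minus donepezil. Blue points are the 59 genes called higher with encenicline and red points the 66 called lower; Pdk4 stands apart at the lower right, a gene both abundant and far below 0.

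In the genes that separated the drugs, saline hearts mostly resembled encenicline hearts. The saline libraries enter the filter and the spread in this contrast, not its direction. The saline mean of log2(FPKM + 0.5) lay nearer the encenicline mean in 112 of the 125 called genes, 89.6%, against 53.7% of all genes tested and 68.8% of the 1885 genes with an unadjusted p under 0.05 that were not called. It lay between the drug means in 88 genes, beyond the encenicline mean in 37 and beyond the donepezil mean in 0. The median absolute distance to saline was 0.15 for encenicline and 0.56 for donepezil. This is a description with no test of either drug against saline, and the count was 112 without donepezil 1 and encenicline 1 and 110 without donepezil 4.

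The 3 called genes with the lowest log2 fold changes, Pdk4, Angptl4 and Ucp3, are fasting genes. Of 20 genes listed as fasting and PPAR targets, 15 were tested, 8 were called lower with encenicline and 0 higher, where 0.493% of all genes were called lower. The median log2 fold change of the list was -0.56, with 13 members below 0. An unadjusted p under 0.05 in limma was reached by 10 of the 15, beside 15% of all genes. The list was chosen with earlier results of these data known, so its share of calls is a description, not a test. Pdk4 encodes the kinase that switches off pyruvate dehydrogenase and so spares glucose. Its levels were 1186, 854, 789, 668 and 814 FPKM in donepezil 1 to 5 and 176, 299.9, 191, 168 and 243 FPKM in encenicline 1 to 5. The lowest donepezil library held more than any encenicline library by a factor above 2, and the saline mean was lower still, with libraries at 143, 113, 197, 101 and 104 FPKM. The difference was 4.02-fold (log2 fold change -2.01, SE 0.21, adjusted p = 0.000193, limma with Benjamini-Hochberg adjustment).

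Ucp3 encodes a mitochondrial carrier of muscle that rises when fatty acids are the fuel. It had the smallest adjusted p of all genes tested. Ucp3 stood at 56.3, 65.2, 51.2, 34.8 and 55.0 FPKM with donepezil and at 13.7, 18.9, 15.6, 13.3 and 15.0 FPKM with encenicline. The encenicline values were tightly grouped and close to those of saline, 11.7, 15.5, 11.7, 12.9 and 10.9 FPKM, and all lay below the lowest donepezil value (log2 fold change -1.73, SE 0.15, adjusted p = 5.80e-05, limma with Benjamini-Hochberg adjustment). Angptl4, a secreted inhibitor of lipoprotein lipase, stood at 16.3, 12.0, 10.6, 17.2 and 19.9 FPKM with donepezil and 2.52, 8.81, 2.74, 2.60 and 3.77 FPKM with encenicline. Encenicline 2 was the highest of its group for Angptl4 and for Pdk4 as well, but the groups did not overlap in either gene (Angptl4 log2 fold change -1.89, SE 0.30, adjusted p = 0.00718, limma with Benjamini-Hochberg adjustment). Cpt1a, the gate for long-chain fatty acids into mitochondria in its liver form, had a smaller but tight difference, 14.8, 15.5, 14.8, 16.9 and 15.4 FPKM against 8.76, 11.0, 11.4, 10.1 and 10.7 FPKM (log2 fold change -0.56, SE 0.09, adjusted p = 0.00891). For Cpt1a the encenicline mean, 10.4 ± 1.03 FPKM, lay below that of saline, 11.8 ± 1.45 FPKM (± SD over 5 libraries per group).

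The promoters of the 2 genes with the smallest p among those lower with encenicline are shown because fasting genes are read through nuclear receptors that bind the half-site AGGTCA. Each runs from 250 bases before to 50 after the start in RefSeq on GRCm38.p6, 5′ to 3′ on the gene's strand, with matches in capitals. The search covered both strands for AGGTCA, the glucocorticoid half-site AGAACA, the full glucocorticoid response element, the forkhead site GTAAACA, the metal response core TGCGCNC or TGCACNC and the E-box CACGTG.
Ucp3, chr7:100472741-100473040, plus strand: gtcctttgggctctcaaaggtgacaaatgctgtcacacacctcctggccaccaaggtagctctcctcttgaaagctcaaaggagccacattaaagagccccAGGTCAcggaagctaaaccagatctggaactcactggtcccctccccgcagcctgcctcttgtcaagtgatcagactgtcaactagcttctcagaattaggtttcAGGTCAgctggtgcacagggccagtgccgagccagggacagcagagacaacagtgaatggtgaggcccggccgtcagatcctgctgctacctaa
Pdk4, chr6:5496229-5496528, minus strand: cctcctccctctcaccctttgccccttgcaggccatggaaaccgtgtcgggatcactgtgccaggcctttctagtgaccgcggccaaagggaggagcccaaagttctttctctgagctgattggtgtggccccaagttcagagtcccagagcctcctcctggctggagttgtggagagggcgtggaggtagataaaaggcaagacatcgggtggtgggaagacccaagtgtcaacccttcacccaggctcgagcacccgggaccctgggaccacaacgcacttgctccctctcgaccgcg
The Ucp3 window held AGGTCA at 2 places, and the Pdk4 window held none of these letter strings. Of 32851 promoters of that table, 16.3% held AGGTCA, 19.0% AGAACA, 25.7% a metal response core, 7.15% CACGTG, 3.65% GTAAACA and 0.475% the full glucocorticoid element. A comparison of called genes with other genes was void, because only 93 of the 125 called genes, 74.4%, had a promoter there, below the 80% required. A match is a description of letters, not a binding site.

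Ucp2, Txnip and Ehhadh, also called lower, have known roles at other steps of fuel use, which was not measured here. Ucp2, the broadly expressed relative of Ucp3, stood at 22.3, 24.1, 23.2, 32.9 and 15.5 FPKM with donepezil and 14.4, 10.1, 10.7, 14.3 and 11.1 with encenicline (log2 fold change -0.91, SE 0.17, adjusted p = 0.0217). Txnip, a thioredoxin-binding protein that restrains glucose uptake, stood at 315, 275, 327, 307 and 326 FPKM and 173, 259.7, 181, 152 and 129.6 FPKM (log2 fold change -0.83, SE 0.16, adjusted p = 0.0217), with encenicline 2 again the highest of its group. Ehhadh, an enzyme of peroxisomal beta-oxidation, was at 10.4 ± 2.55 against 5.09 ± 1.67 FPKM (± SD over 5 libraries per group; log2 fold change -0.97, SE 0.21, adjusted p = 0.0402). Donepezil 4, at 5.84 FPKM, overlapped the encenicline range of Ehhadh. All these are limma values with Benjamini-Hochberg adjustment. The calls of Pdk4, Ucp3, Angptl4 and Cpt1a held with each of the 10 libraries left out in turn. Without both donepezil 1 and encenicline 1, Angptl4 (adjusted p = 0.0627) and Cpt1a (0.0536) lost theirs, and Cpt1a did so as TPM (0.0570). Left out singly, 4 of the 10 libraries ended the call of Ucp2 when left out (adjusted p up to 0.0647, without encenicline 2), 3 did so for Txnip (up to 0.0587) and 8 for Ehhadh (up to 0.103).

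**Figure D2:**
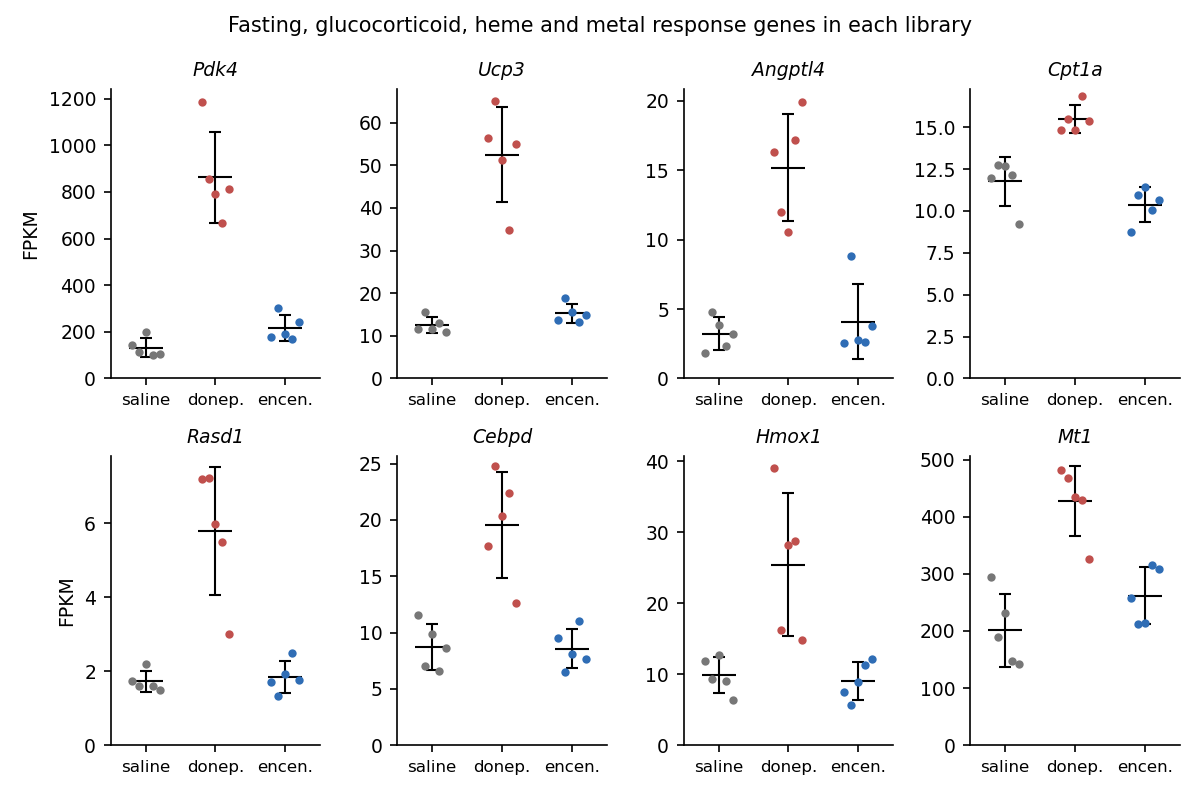
FPKM of 8 genes in each of the 15 libraries; points are libraries 1 to 5 of a group from left to right, the long bar is the mean and the whiskers 1 SD (n = 5). In all 8 genes the donepezil points lie above the encenicline points; Mt1 is the only one of the 8 that was not called.

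Genes known as targets of the glucocorticoid receptor, the hormone receptor that adrenal steroids activate, were also represented among the calls. Of 30 listed, 28 were tested and 4 were called lower and 0 higher, beside 0.493% of all genes lower. The median log2 fold change was -0.57, and 27 of the 28 lay below 0, while 49.2% of all genes tested did. In limma 20 of the 28 had an unadjusted p under 0.05, beside 15% of all genes. This list too was chosen with earlier results of these data known. Rasd1, a small GTPase first found as a dexamethasone-induced gene, stood at 7.21, 7.24, 5.98, 5.51 and 3.0 FPKM with donepezil and 1.71, 1.32, 1.93, 2.49 and 1.76 FPKM with encenicline. The groups did not overlap and encenicline matched saline, 1.49 to 2.19 FPKM, in range (log2 fold change -1.39, SE 0.19, adjusted p = 0.00267, limma with Benjamini-Hochberg adjustment). Cebpd, a transcription factor of acute responses, stood at 17.7, 24.8, 20.3, 22.4 and 12.6 against 9.52, 6.50, 8.11, 11.0 and 7.67 FPKM (log2 fold change -1.13, SE 0.19, adjusted p = 0.00979). Donepezil 5 was the lowest donepezil library for both genes.

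Arrdc3, an arrestin-like protein that directs receptors to degradation, was at 9.92 ± 2.59 FPKM with donepezil and 4.72 ± 0.999 with encenicline (± SD over 5 libraries per group; log2 fold change -0.99, SE 0.17, adjusted p = 0.0109). Errfi1, a feedback inhibitor of the EGF receptor, was at 15.8 ± 3.16 against 7.64 ± 1.13 FPKM (log2 fold change -0.99, SE 0.22, adjusted p = 0.0425), again limma with Benjamini-Hochberg adjustment. For Errfi1, 9 of the 10 libraries ended the call when left out (adjusted p up to 0.112, without donepezil 1), while the other 3 calls held each time; that of Arrdc3 ended without both donepezil 1 and encenicline 1 (0.0628). With limma voom on the recovered reads 7 of the list were called lower. Nr3c2, the related mineralocorticoid receptor, went the other way: it was called higher with encenicline, with overlapping groups, at 1.60 ± 0.326 FPKM with donepezil and 2.61 ± 0.288 with encenicline (log2 fold change 0.58, SE 0.12, adjusted p = 0.0402), although 7 of the 10 libraries ended that call when left out (up to 0.110, without donepezil 1).

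FoxO factors, which insulin signalling keeps out of the nucleus, drive muscle wasting and autophagy genes. Of 19 such genes tested, 2 were called lower and 0 higher (0.493% of all genes lower). The median was -0.30, with 17 members below 0. In limma 10 of the 19 had an unadjusted p under 0.05, beside 15% of all genes. Gabarapl1, an autophagosome protein, stood at 132, 68.9, 104, 85.8 and 73.6 FPKM with donepezil and 53.2, 56.8, 56.4, 63.2 and 55.6 FPKM with encenicline, with donepezil 1 the highest (log2 fold change -0.66, SE 0.14, adjusted p = 0.0419). Fbxo30, a ubiquitin ligase subunit induced in wasting muscle, was at 6.25 ± 0.812 against 4.39 ± 0.397 FPKM (log2 fold change -0.46, SE 0.09, adjusted p = 0.0267). Igf1r, the receptor for insulin-like growth factor 1, was also lower with encenicline, 2.73 ± 0.339 against 1.73 ± 0.284 FPKM (log2 fold change -0.54, SE 0.11, adjusted p = 0.0342). None of these 3 calls held in every omission of 1 library. Left out in turn, 8 of the 10 libraries ended the call of Gabarapl1 (limma adjusted p up to 0.0990). For Fbxo30 3 of the 10 did so (up to 0.0706) and for Igf1r 8 of the 10 (up to 0.0941). At those highest values the log2 fold changes were -0.65, -0.46 and -0.49, in the same order. With TPM scaling 0 of the FoxO list was called.

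The metallothioneins Mt1 and Mt2 bind zinc and copper and are induced by metals and glucocorticoids. Neither was called, though their groups did not overlap. Mt1 stood at 481, 468, 434, 429.9 and 325 FPKM with donepezil and 257, 212, 213, 315 and 308 FPKM with encenicline (log2 fold change -0.72, SE 0.19, adjusted p = 0.0898). Mt2 stood at 42.3, 41.7, 39.3, 53.7 and 27.2 FPKM and 11.4, 7.33, 14.1, 7.48 and 15.5 FPKM (log2 fold change -1.86, SE 0.57, adjusted p = 0.140). Saline 5, at 0.407 FPKM, was far below the other saline libraries and enters the estimate of the spread. In the list of metallothioneins and zinc transporters, limma called 0 of the 12, limma voom on the recovered reads called 1, and 5 had an unadjusted p under 0.05. Slc30a1, which exports zinc, had a log2 fold change of -0.27, adjusted p = 0.165, and Slc39a10, which imports it, 0.28, adjusted p = 0.136 (limma with Benjamini-Hochberg adjustment). Mt1 and Mt2 are closely related neighbours, and reads could be split between them.

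Stress and growth regulators made up further calls on the lower side. Hmox1, the enzyme that breaks down heme, stood at 39.1, 16.2, 28.2, 28.7 and 14.8 FPKM with donepezil and 7.45, 5.68, 8.90, 11.3 and 12.1 FPKM with encenicline. Donepezil ranged widely, yet its lowest library lay above the highest encenicline library (log2 fold change -1.39, SE 0.27, adjusted p = 0.0233, limma with Benjamini-Hochberg adjustment). Hmox1 was the 1 called gene among 21 antioxidant genes tested, whose median was -0.09. Alas1, the first enzyme of heme synthesis, went the opposite way. Alas1 stood at 14.2, 18.2, 14.9, 15.2 and 24.2 FPKM with donepezil and 26.0, 30.4, 26.1, 28.4 and 29.1 FPKM with encenicline (log2 fold change 0.70, SE 0.14, adjusted p = 0.0291). In single-library omissions, 4 of the 10 libraries ended the call of Hmox1 when left out (adjusted p up to 0.0647, without encenicline 2), and 7 of the 10 for Alas1 (up to 0.0879) did so.

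Chac1, an enzyme that degrades glutathione, was the 1 called gene among 23 of the integrated stress response, at 9.28 ± 3.53 FPKM with donepezil and 3.23 ± 1.09 with encenicline (± SD over 5 libraries per group; log2 fold change -1.35, SE 0.28, adjusted p = 0.0375), with overlapping groups. Among 24 immediate early genes, 10 had an unadjusted p under 0.05 in limma, beside 15% of all genes. Of the 24, 3 were called lower and 0 higher, with a median of -0.16. These were Fosl2, a partner in the AP-1 transcription factor (log2 fold change -0.91, SE 0.18, adjusted p = 0.0259), Myc, a driver of growth (log2 fold change -0.76, SE 0.13, adjusted p = 0.0109), and Klf6, a zinc-finger factor of tissue injury (log2 fold change -0.49, SE 0.10, adjusted p = 0.0247). Myc stood at 3.06, 2.39, 3.20, 4.48 and 2.75 FPKM with donepezil and 1.34, 1.70, 1.77, 1.71 and 1.71 FPKM with encenicline, low in both groups and without overlap. Maff, a small Maf factor that pairs with antioxidant regulators, had values of 10.8 to 16.1 FPKM with donepezil and 3.77 to 7.53 with encenicline (log2 fold change -1.0, SE 0.19, adjusted p = 0.0238). Only the Myc call held with every library left out, and it ended as TPM (0.0693) and without both donepezil 1 and encenicline 1 (0.0713). Otherwise 8 of the 10 for Chac1 (up to 0.103), 5 of the 10 for Fosl2 (up to 0.0775), 5 of the 10 for Klf6 (up to 0.0759) and 3 of the 10 for Maff (up to 0.0740) ended the call. The p-values are from limma with Benjamini-Hochberg adjustment.

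Further genes lower with encenicline belong to none of the lists, apart from Sox17. Cyp1b1, a cytochrome P450 of steroid and retinoid metabolism, stood at 5.27, 7.61, 3.85, 7.04 and 3.40 FPKM with donepezil and 2.09, 1.75, 1.47, 1.11 and 1.56 FPKM with encenicline (log2 fold change -1.46, SE 0.20, adjusted p = 0.00307). Fam214a was at 14, 8.90, 13.9, 11.5 and 6.43 against 5.16, 3.32, 4.83, 3.24 and 3.86 FPKM (log2 fold change -1.29, SE 0.20, adjusted p = 0.00610). Il4ra, the receptor chain for interleukin 4 and 13, was at 9.53, 9.83, 8.22, 9.65 and 7.01 against 4.55, 4.31, 4.89, 4.56 and 5.99 FPKM (log2 fold change -0.80, SE 0.11, adjusted p = 0.00349). In all 3 the groups were separate, and the call held with each library left out. Rbp7, a retinol-binding protein, was at 57.8 ± 7.37 against 31.0 ± 6.60 FPKM (log2 fold change -0.91, SE 0.14, adjusted p = 0.00610), a call that held in the same way but ended without both donepezil 1 and encenicline 1 (0.0573). Trp53inp1, a p53-induced stress protein, and Sox17, an endothelial transcription factor, had log2 fold changes of -1.08, adjusted p = 0.0309 and -0.70, adjusted p = 0.0259. The groups overlapped in Trp53inp1. Neither call held in every omission: 8 of the 10 libraries ended that of Trp53inp1 (up to 0.0834) and 6 that of Sox17 (up to 0.0720). At those highest values the log2 fold changes were -1.03 and -0.68. All p-values are limma's with Benjamini-Hochberg adjustment.

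Genes higher with encenicline were led by Gal3st3, Rrad, Rtn4r, Fam78a and Lrrc3b, with log2 fold changes of 1.33 to 1.4. Gal3st3, a sulfotransferase that modifies sugar chains, stood at 1.49, 2.71, 2.15, 1.64 and 2.48 FPKM with donepezil and 4.16, 7.52, 6.31, 6.85 and 6.88 FPKM with encenicline (log2 fold change 1.4, SE 0.17, adjusted p = 0.00122, limma with Benjamini-Hochberg adjustment). Fam78a stood at 1.07, 1.54, 1.33, 1.47 and 1.8 against 3.78, 4.42, 4.61, 4.90 and 4.30 FPKM (log2 fold change 1.34, SE 0.13, adjusted p = 0.000128). The lowest encenicline library of Fam78a held more than the highest donepezil library by a factor above 2, and saline, 2.90 to 4.97 FPKM, lay on the side of encenicline. Lrrc3b, a leucine-rich repeat membrane protein, stood at 2.68, 3.48, 2.83, 2.19 and 3.69 against 6.99, 9.52, 6.34, 8.94 and 9.48 FPKM (log2 fold change 1.33, SE 0.16, adjusted p = 0.00105). Rtn4r, the receptor through which Nogo restrains axon growth, stood at 0.799, 0.242, 0.919, 2.23 and 1.06 against 2.77, 2.72, 3.05, 3.65 and 3.51 FPKM (log2 fold change 1.35, SE 0.24, adjusted p = 0.0146). Calls of these 4 held with every library left out. That of Rtn4r ended with no filter (adjusted p = 0.0580), as TPM (0.0620) and without both donepezil 1 and encenicline 1 (0.0757). Fam78a, Lrrc3b, Rrad, Cacnb2, G0s2 and Smim5 each overlap a gene on the opposite strand. Other named genes do so too. Among the genes called lower, the overlapping gene had a mean over the 15 libraries of 0.501 FPKM for Cebpd and 0.476 for Gabarapl1. It was 0.386 FPKM for Txnip, 0.192 for Ucp3 and 0.175 for Ucp2. The use of strand in counting is not given in the sources used here.

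Several genes on the higher side act in excitation and contraction of heart muscle. Rrad, a small GTPase that restrains the L-type calcium channel, stood at 36.3, 16.8, 32.5, 47.4 and 57.3 FPKM with donepezil and 65.9, 124, 89.0, 105 and 85.5 FPKM with encenicline (log2 fold change 1.37, SE 0.28, adjusted p = 0.0348). Cacnb2, the regulatory beta subunit of that channel, stood at 1.17, 2.05, 1.8, 1.34 and 2.01 against 3.38, 3.06, 2.96, 2.93 and 3.26 FPKM (log2 fold change 0.75, SE 0.13, adjusted p = 0.0125). The inhibitor and the subunit of the channel were thus both higher with encenicline. Gja1, connexin 43 of the gap junctions between myocytes, stood at 12.0, 13.9, 12.9, 11.7 and 16.3 against 22.0, 27.2, 23.1, 20.8 and 30.3 FPKM (log2 fold change 0.86, SE 0.19, adjusted p = 0.0414). Hcn4, the pacemaker channel, was near 1 FPKM, at 0.971, 1.10, 1.13, 0.650 and 1.17 with donepezil and 1.74, 2.23, 2.76, 1.72 and 1.47 with encenicline (log2 fold change 0.71, SE 0.15, adjusted p = 0.0368). Irx4, a homeobox factor that marks ventricular myocytes, stood at 7.13, 8.64, 7.19, 6.52 and 9.38 against 11.0, 13.4, 13.2, 13.9 and 13.9 FPKM (log2 fold change 0.72, SE 0.10, adjusted p = 0.00441). Groups were separate in each of these 5 genes. As TPM, and with scaling without mitochondrially encoded genes, the calls of Rrad, Gja1 and Hcn4 ended. Those of Rrad and Hcn4 also ended with only the 10 libraries compared and with a block on replicate number. The calls of Cacnb2 and Irx4 held with every library left out, though that of Cacnb2 ended without both donepezil 1 and encenicline 1 (0.0768), while 7 of the 10 for Rrad (up to 0.0924), 9 of the 10 for Gja1 (up to 0.113) and 8 of the 10 for Hcn4 (up to 0.0924) ended the call (limma with Benjamini-Hochberg adjustment).

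Of 23 calcium-handling genes Cacnb2 alone was called, with a list median of 0.08, and of 22 potassium and sodium channel genes Hcn4 alone, with a median of 0.16 and 19 members above 0. For contractile genes limma called 0 of the 23, limma voom on the recovered reads called 0, and 3 had an unadjusted p under 0.05, and the median was -0.00. Irx4, Rrad and Gja1 were not on these lists.

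**Figure D3:**
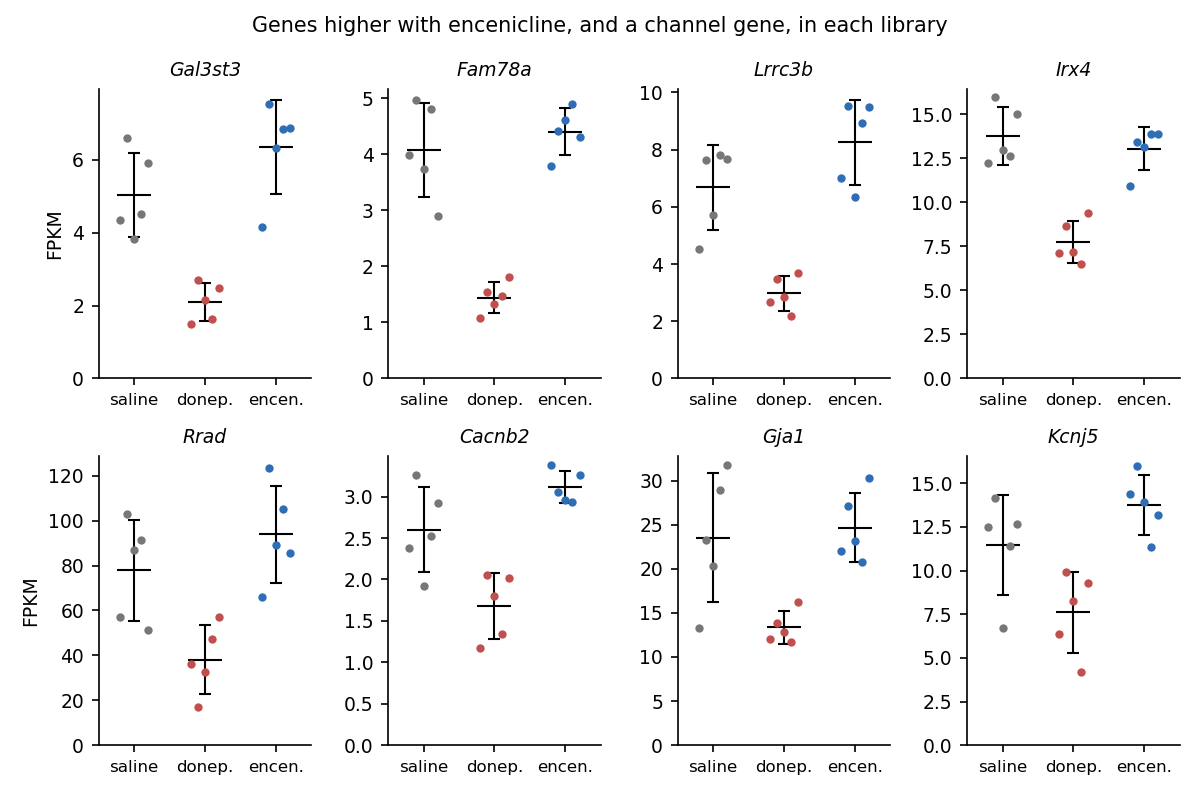
FPKM of 8 genes in each of the 15 libraries; points are libraries 1 to 5 of a group from left to right, the long bar is the mean and the whiskers 1 SD (n = 5). The encenicline points lie above the donepezil points in all 8, and saline overlaps encenicline in each; Kcnj5 is the only one of the 8 that was not called.

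Lipid and carbohydrate regulators were also among the genes higher with encenicline. G0s2, an inhibitor of the lipase that empties lipid droplets, stood at 26.5, 38.6, 31.1, 23.6 and 56.4 FPKM with donepezil and 58.7, 91.4, 75.0, 86.8 and 58.6 FPKM with encenicline (log2 fold change 1.11, SE 0.24, adjusted p = 0.0425). Mid1ip1, which activates acetyl-CoA carboxylase in fatty acid synthesis, stood at 20.3, 22.5, 34.3, 32.9 and 20.5 against 68.0, 54.7, 61.5, 67.0 and 49.5 FPKM (log2 fold change 1.22, SE 0.17, adjusted p = 0.00373). Slc16a1, the monocarboxylate transporter that carries lactate, had a modest difference, 43.9 ± 7.15 against 59.8 ± 4.78 FPKM, with overlapping groups (± SD over 5 libraries per group; log2 fold change 0.45, SE 0.10, adjusted p = 0.0449). G0s2 was the 1 call of 19 genes of lipid droplets and lipoprotein lipase, and Slc16a1 the 1 call of 17 of ketone and amino acid oxidation. The call of Mid1ip1 held with every library left out, while 9 of the 10 for G0s2 (up to 0.114) and 8 of the 10 for Slc16a1 (up to 0.115) ended it (limma with Benjamini-Hochberg adjustment).

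Other genes of the higher side serve transcription, adhesion and the cytoskeleton. Cited4, a co-regulator of transcription known from exercised mouse hearts, stood at 8.99, 7.19, 6.07, 6.42 and 9.76 FPKM with donepezil and 12.0, 23.4, 15.0, 24.5 and 19.7 FPKM with encenicline (log2 fold change 1.22, SE 0.20, adjusted p = 0.00979). Lbh, a cofactor of heart development, was the most abundant gene of this group, at 65.6, 89.9, 86.5, 67.5 and 131 against 127, 155, 153, 174 and 164 FPKM, where donepezil 5 reached into the encenicline range (log2 fold change 0.85, SE 0.17, adjusted p = 0.0286). Phyhip was at 3.24, 3.59, 2.97, 2.83 and 3.39 against 5.23, 6.86, 6.92, 6.97 and 6.95 FPKM (log2 fold change 0.93, SE 0.09, adjusted p = 0.000193). Its encenicline values were tight apart from encenicline 1. Pkdcc, a secreted tyrosine kinase, and Daam1, a formin that builds actin filaments, had log2 fold changes of 0.71, adjusted p = 0.00105 and 0.69, adjusted p = 0.00131 (limma with Benjamini-Hochberg adjustment). Bambi, a decoy receptor of TGF-beta signalling, was at 2.26 ± 0.428 FPKM with donepezil and 3.96 ± 0.393 with encenicline (log2 fold change 0.70, SE 0.12, adjusted p = 0.0108).

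Itgb6, an integrin subunit, Smim5, a small membrane protein, Kbtbd13, a muscle kelch protein, and Mgat3, a glycosyltransferase, had log2 fold changes of 1.10, adjusted p = 0.00516, 1.02, adjusted p = 0.00891, 0.95, adjusted p = 0.0105 and 0.75, adjusted p = 0.0425. Itgb6, Kbtbd13 and Mgat3 lay near or below 1 FPKM with donepezil. Of the genes of these last 2 groups only Lbh (8 libraries, adjusted p up to 0.0825) and Mgat3 (8 libraries, up to 0.119) lost their call when 1 library was left out. Without both donepezil 1 and encenicline 1 the calls of Bambi (0.0703) and Kbtbd13 (0.0592) ended, and Bambi also missed the threshold as TPM (0.0696).

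Respiratory chain genes gave no call. All 40 nuclear genes of the respiratory chain tested had a log2 fold change above 0, with a median of 0.24 and a range of 0.14 to 0.40, while limma called 0 of the 40, limma voom on the recovered reads called 0, and 8 had an unadjusted p under 0.05. Their summed level was 16691, 18870.4, 17092, 11767 and 18204 FPKM with donepezil and 19709.6, 19752, 16427, 21861 and 19641 FPKM with encenicline. Donepezil 4 was the lowest library and encenicline 4 the highest, and the groups overlapped. Without donepezil 4 the median was 0.12, and under the scaling alternatives it was 0.15 to 0.23, with all 40 members above 0 each time. With smallest p among them, Ndufb10 of complex I had a log2 fold change of 0.36, adjusted p = 0.233, Ndufs3 of the same complex 0.29, adjusted p = 0.296, Uqcrq of complex III 0.34, adjusted p = 0.295 and the electron carrier Cycs 0.33, adjusted p = 0.301. For the mitochondrially encoded messenger RNAs limma called 0 of the 13, limma voom on the recovered reads called 0, and 0 had an unadjusted p under 0.05, with a median of 0.14. The mitochondrially encoded share of reads was 23.8% ± 2.05 with encenicline and 23.1% ± 3.41 with donepezil (± SD over 5 libraries per group), a difference of 0.684 percentage points (exact two-sided permutation test, p = 0.762). That difference was -0.748 without donepezil 4 and -0.117 without encenicline 1.

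Mitochondrial beta-oxidation, apart from Cpt1a, was not called. Of the list of fatty acid uptake and beta-oxidation genes, limma called 0 of the 33, limma voom on the recovered reads called 0, and 2 had an unadjusted p under 0.05, with a median of 0.15. By smallest p the list was led by Esrra, an orphan nuclear receptor of energy genes (0.32, adjusted p = 0.225), Fabp4, a fatty acid carrier of capillaries and fat (-0.27, adjusted p = 0.236), Etfb, an electron carrier from beta-oxidation (0.50, adjusted p = 0.334), and Acads, a short-chain dehydrogenase (0.27, adjusted p = 0.345). In the list of glucose uptake, glycolysis and glycogen, limma called 0 of the 33, limma voom on the recovered reads called 0, and 8 had an unadjusted p under 0.05, with a median of 0.12. Pdp1, the phosphatase that reverses the action of Pdk4, stood at 4.87, 4.66, 5.99, 4.26 and 4.92 FPKM with donepezil and 6.90, 6.34, 6.78, 6.70 and 6.43 FPKM with encenicline. These groups did not overlap, but Pdp1 missed the threshold (log2 fold change 0.40, SE 0.10, adjusted p = 0.0621, limma with Benjamini-Hochberg adjustment). Hk2, which traps glucose in muscle, had 0.34, adjusted p = 0.200, the glycolytic regulator Pfkfb3 -0.63, adjusted p = 0.0936 and the glucose transporter Slc2a1 -0.34, adjusted p = 0.161.

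**Figure D4:**
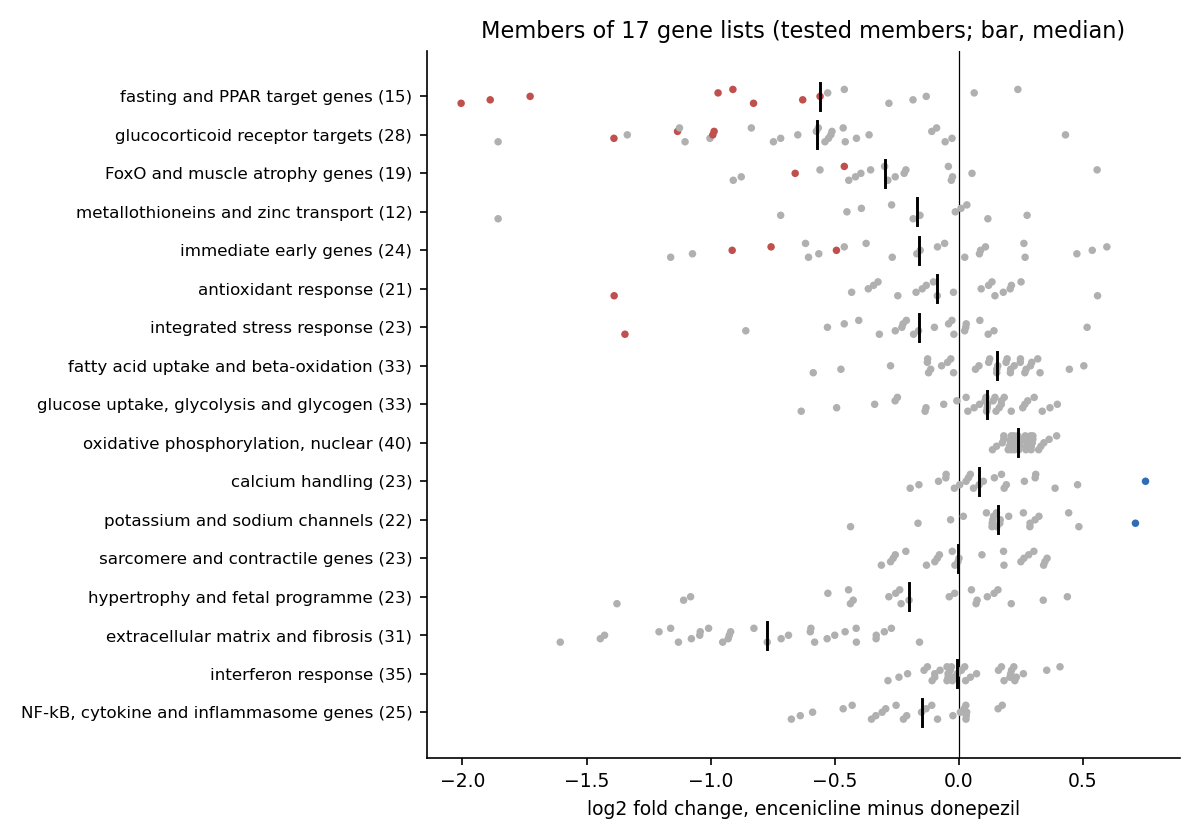
Each point is a tested member of 1 of 17 gene lists, placed by its log2 fold change, encenicline minus donepezil; the black bar is the median of the list, the number tested is in brackets, red points were called lower and blue points higher. The respiratory chain genes lie in a narrow band above 0, and the matrix genes spread below 0 with 0 calls.

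The drugs' own targets were close to or under the limit of detection. Chrna7, the receptor that encenicline activates, was not tested: it did not exceed 0.0716 FPKM, and 14 reads were recovered over all 15 libraries, 2 of them with encenicline and 8 with donepezil. Ache, the enzyme that donepezil blocks, was near the filter, at 0.461, 0.334, 0.599, 0.486 and 0.432 FPKM with donepezil and 0.403, 0.512, 0.869, 0.703 and 0.656 FPKM with encenicline (log2 fold change 0.22, SE 0.13, adjusted p = 0.451). Bche, the related plasma esterase, was at 2.59 ± 0.0799 against 2.58 ± 0.212 FPKM (95% interval of the log2 fold change -0.24 to 0.23). The muscarinic receptor Chrm2 stood at 9.44, 12.1, 9.81, 6.17 and 11.4 FPKM with donepezil and 14.8, 14.7, 11.8, 9.73 and 16.1 FPKM with encenicline (log2 fold change 0.45, SE 0.18, adjusted p = 0.245). Kcnj5, a subunit of the acetylcholine-gated potassium channel, stood at 6.38, 9.89, 8.26, 4.18 and 9.29 against 14.4, 16, 13.9, 11.3 and 13.2 FPKM, without overlap, and missed the threshold (log2 fold change 0.86, SE 0.21, adjusted p = 0.0647). Its partner Kcnj3 had 0.47, adjusted p = 0.304, and Stat3, which relays the nicotinic signal in macrophages, -0.37, adjusted p = 0.0958. Of 14 cholinergic genes tested, limma called 0 of the 14, limma voom on the recovered reads called 1, and 4 had an unadjusted p under 0.05. In the opposing arm of adrenergic and cyclic nucleotide signalling, limma called 0 of the 22, limma voom on the recovered reads called 0, and 4 had an unadjusted p under 0.05; Adrb1, the main beta receptor of myocytes, had 0.46, adjusted p = 0.205, Adcy6, which makes cyclic AMP, 0.28, adjusted p = 0.296, and the phosphodiesterase Pde4a, which removes it, 0.32, adjusted p = 0.287 (limma with Benjamini-Hochberg adjustment).

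Several markers of hypertrophy and scarring were highest in donepezil 4. Nppa, the atrial natriuretic peptide that ventricles re-express under load, stood at 104, 92.5, 93.2, 857 and 112 FPKM with donepezil and 29.2, 44.9, 79.3, 119 and 57.0 FPKM with encenicline. The fourth donepezil value lay far above the other 9 (log2 fold change -1.38, SE 0.65, adjusted p = 0.334). Myh7, the slow myosin of the fetal heart, stood at 14.2, 19.4, 18.3, 172 and 30.1 against 9.26, 14.7, 27.3, 17.4 and 8.75 FPKM (log2 fold change -1.08, SE 0.55, adjusted p = 0.377), with the same library high. Nppb, the B-type natriuretic peptide, stood at 209, 23.8, 131, 477 and 171 against 127, 125, 185, 369 and 230.0 FPKM (log2 fold change 0.44, SE 0.64, adjusted p = 0.775), and Myh6 at 2602 ± 187 against 2695 ± 181 (95% interval of the log2 fold change -0.24 to 0.35). In the hypertrophy and fetal list, limma called 0 of the 23, limma voom on the recovered reads called 0, and 2 had an unadjusted p under 0.05. By smallest p the list gave Gata4, a cardiac transcription factor (0.34, adjusted p = 0.183), Mef2c, another (0.21, adjusted p = 0.241), and Nfatc1, a calcineurin target (-0.20, adjusted p = 0.352). Myh7 overlaps antisense and other transcripts on the opposite strand, and the counting is not stated to use strand, so its reads cannot be told apart from theirs.

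All 31 matrix genes tested lay below 0, with a median of -0.77, yet limma called 0 of the 31, limma voom on the recovered reads called 0, and 8 had an unadjusted p under 0.05. Their summed level was 641, 489, 556, 2726 and 578 FPKM in donepezil 1 to 5 and 417, 446, 543, 525 and 543 FPKM in encenicline 1 to 5. Donepezil 4 held more than any other library of either group by a factor above 4, and the remaining donepezil libraries overlapped those of encenicline. Without it the median was -0.18, with 23 of 31 below 0. Col1a1, the main collagen of scar, stood at 20.1, 13.7, 16.8, 229 and 16.9 FPKM with donepezil and 9.80, 12.6, 19.8, 15.7 and 18.2 FPKM with encenicline (log2 fold change -0.92, SE 0.59, adjusted p = 0.480). Postn, a marker of activated fibroblasts, stood at 5.29, 3.38, 6.51, 155 and 6.68 against 4.21, 3.12, 6.60, 8.01 and 4.13 FPKM (log2 fold change -1.04, SE 0.82, adjusted p = 0.567). Thbs1, which releases TGF-beta, had -1.61, adjusted p = 0.167, the collagen cross-linker Lox -1.44, adjusted p = 0.205, and the basement membrane collagens Col4a1 and Col4a2 -0.60, adjusted p = 0.159 and -0.53, adjusted p = 0.212 (limma with Benjamini-Hochberg adjustment). Col4a1 and Col4a2 overlap on opposite strands, so their reads cannot be told apart without strand.

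Cell markers moved with that library too. All 10 fibroblast markers were tested: their summed level was 1182 FPKM in donepezil 4 and 737 to 903 in the other donepezil libraries, against 764 to 836 with encenicline. Of 10 monocyte markers 6 were tested, Chil3, Ly6c2, Plac8 and Spn being under the filter, and their sum was 116 FPKM in donepezil 4, 25.2 to 35.1 in the other donepezil libraries and 22.1 to 32.0 with encenicline. For fibroblast markers limma called 0 of the 10, limma voom on the recovered reads called 0, and 1 had an unadjusted p under 0.05, and for monocyte markers limma called 0 of the 6, limma voom on the recovered reads called 0, and 1 had an unadjusted p under 0.05. The median was -0.22 for fibroblast and -0.50 for monocyte markers, and -0.03 and -0.12 without donepezil 4. For the 10 cardiomyocyte markers limma called 0 of the 10, limma voom on the recovered reads called 0, and 1 had an unadjusted p under 0.05, with a median of 0.17. The part of these cell types in the matrix and natriuretic peptide values was not tested.

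**Figure D5:**
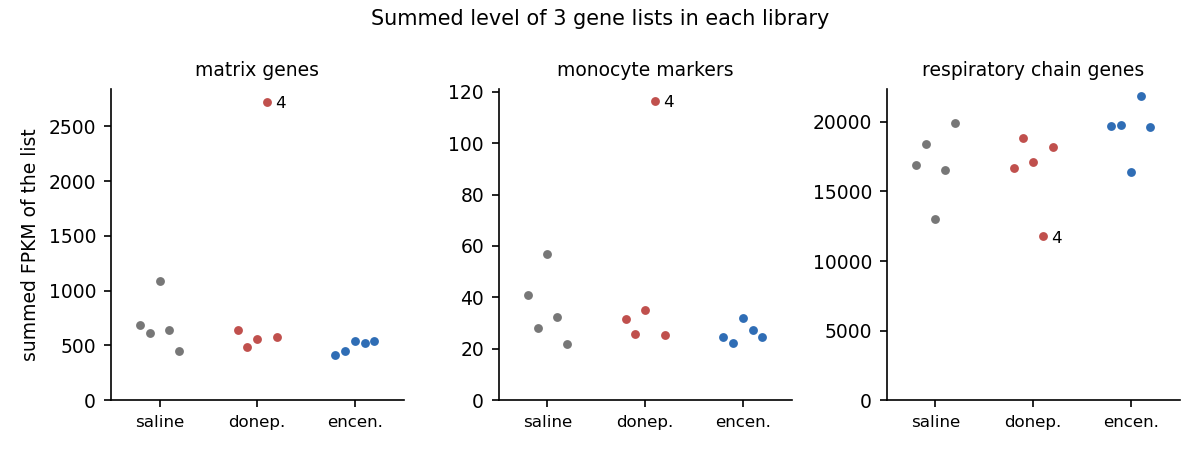
Summed FPKM of the 31 tested matrix genes, the 6 tested monocyte markers and the 40 respiratory chain genes in each library; points are libraries 1 to 5 of a group from left to right, and donepezil 4 is numbered. It is the highest point for matrix genes and monocyte markers and the lowest for the respiratory chain genes, while the other 4 donepezil libraries lie in or near the encenicline range.

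Inflammatory genes, which the nicotinic pathway is known to damp, were not called in these lists. The lists do not cover every immune gene: Il4ra, given above as called lower with encenicline, is on none of them. In the NF-kB, cytokine and inflammasome list limma called 0 of the 25, limma voom on the recovered reads called 0, and 8 had an unadjusted p under 0.05. The median was -0.15, with 17 members below 0 and 8 above. By smallest p, Nfkbia, the inhibitor of NF-kB, had a log2 fold change of -0.47, adjusted p = 0.0919, the endotoxin receptor Tlr4 -0.67, adjusted p = 0.0992, the cytokine brake Socs3 -0.64, adjusted p = 0.116, and Osmr, the oncostatin M receptor, -0.43, adjusted p = 0.158. Il1b was at or below the pseudocount in most libraries, 0.173 to 1.03 FPKM with donepezil and 0.350 to 1.09 with encenicline. For interferon genes limma called 0 of the 35, limma voom on the recovered reads called 0, and 4 had an unadjusted p under 0.05, with a median of -0.01 over members that ranged from -0.28 to 0.41. Gbp5, a guanylate-binding protein, had 0.41, adjusted p = 0.213, Igtp, a related GTPase, 0.36, adjusted p = 0.278, Trim25, a ubiquitin ligase of virus sensing, -0.28, adjusted p = 0.180, and Rsad2, viperin, 0.26, adjusted p = 0.297. Among chemokines and their receptors limma called 0 of the 26, limma voom on the recovered reads called 0, and 7 had an unadjusted p under 0.05; the eosinophil chemokine Ccl11 had 0.78, adjusted p = 0.173, Cxcl9 0.47, adjusted p = 0.238, the scavenger receptor Ackr3 0.52, adjusted p = 0.0999 and the chemerin receptor Cmklr1 -0.35, adjusted p = 0.236.

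Ccrl2, the macrophage gene that the title of the series names, was not called. Ccrl2, a chemerin-binding receptor, stood at 7.83, 11.0, 8.00, 4.02 and 5.98 FPKM with donepezil and 6.03, 5.86, 5.76, 5.28 and 5.84 FPKM with encenicline. The groups overlapped, with the wider spread in donepezil, and the 95% interval of the log2 fold change was -0.67 to 0.14 (adjusted p = 0.528, limma with Benjamini-Hochberg adjustment). Ccr2, which brings monocytes out of the blood, stood at 0.449, 0.248, 0.537, 2.66 and 0.324 against 0.805, 0.494, 0.549, 0.867 and 0.698 FPKM (interval -0.62 to 0.70). Cd68 and Adgre1, general macrophage markers, had intervals of -0.55 to 0.43 and -0.41 to 0.80. In all 3 donepezil 4 was the highest donepezil library. These intervals leave room for differences of up to about 0.5 to 0.8 on the log2 scale.

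One macrophage marker was called. Timd4, which marks long-resident macrophages and binds dying cells, stood at 0.238, 0.154, 0.455, 0.159 and 0.178 FPKM with donepezil, 0.824, 0.642, 0.756, 0.645 and 0.682 with encenicline and 0.742, 0.643, 0.838, 1.24 and 1.13 with saline. Every donepezil value lay below the pseudocount and below every encenicline value (log2 fold change 0.73, SE 0.14, adjusted p = 0.0221), and the size of the difference depends on the pseudocount. Timd4 passed the filter of 0.5 FPKM only through the encenicline and saline libraries, where it is high. It was the 1 call of 12 macrophage markers, whose list median was -0.06, and 5 of the 10 libraries ended it when left out (adjusted p up to 0.0559, without donepezil 1). Emcn, an endothelial surface sialomucin, was likewise the 1 call of 10 endothelial markers, at 6.37, 5.07, 7.18, 6.38 and 6.57 FPKM with donepezil and 10.4, 9.98, 8.95, 10.5 and 8.89 with encenicline (log2 fold change 0.59, SE 0.09, adjusted p = 0.00610), and held with every library left out (limma with Benjamini-Hochberg adjustment). The Emcn call ended as TPM (0.0902) and without both donepezil 1 and encenicline 1 (0.0566). The list median of endothelial markers was 0.01.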

How the data were processed

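Bulk RNA of mouse hearts was sequenced, and the authors deposited 1 table of FPKM per gene for 15 libraries. The build GRCm38 and the tools featureCounts 1.5.0-p3, HISAT and DESeq 1.8.3 are named by the submitters' processing notes; trimming, strand and filters are not given in the sources used here. FPKM values of all 15 libraries gave whole reads (within 0.05 of a read) once multiplied by gene length and depth, which gives the 14496147 to 17176086 reads per library quoted; counting error is small for all but genes near the filter. The depth behind the FPKM was 0.925 times the reads recovered in genes for encenicline 1 and 1.15 times for donepezil 4. These FPKM are therefore not plain shares of each library, and how the depth was set is not given in the sources used here. Median-ratio factors of the FPKM ran from 0.983 (donepezil 4) to 1.007 (encenicline 2). TPM and scaling without mitochondrially encoded genes replace the deposited scaling by a sum over genes, which a few abundant genes can move. Symbols that a spreadsheet had turned into dates, 27 in all, were restored by gene ID.

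Genes reaching 0.5 FPKM in 5 or more libraries were fitted with limma 3.58.1 in R 4.3.3 (moderated test with trended variances) on log2(FPKM + 0.5), 3 groups in 1 fit, contrast encenicline minus donepezil, with Benjamini-Hochberg adjustment over 13396 genes and a threshold of 0.05. The saline libraries enter the spread and, as part of the 15, the filter. The test was tried on simulated data. Named genes are protein coding with a mean of at least 1 FPKM over the 10 libraries: 15 in each direction by fold, 8 by p, the called or otherwise up to 4 leading members of each list described, and 15 genes of the study's subject; Mgat3, Timd4 and others under other parts of the rule may fall below 1 FPKM. This rule also picked genes whose results are not reported here. Members and lists were chosen with earlier results of these data known. The mitochondrially encoded share was compared with an exact two-sided permutation test, whose smallest p at 5 against 5 is 0.00794. Alternatives changed the pseudocount, filter, scaling, weights, groups, test and libraries. Promoters are from RefSeq on GRCm38.p6.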

Additional observations from a re-analysis of the deposited data

Results flagged for a closer look

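In 24 of 226 groups of 5 libraries examined over 112 genes, 1 library lay farther from its nearest neighbour than Dixon's 95% limit allows; chance gives about 1 in 20. Donepezil 4 accounts for most of them. It was high for the scar and load genes Nppa (857 FPKM), Col1a1 (229), Myh7 (172), Postn (155), Lox (39.3) and Thbs1 (26.9), and for the leukocyte genes Cd68 (11.1), Adgre1 (8.83) and Ccr2 (2.66), as well as for the phosphodiesterase Pde3b (1.14 FPKM). It was low for the fatty acid genes Acads (69.7 FPKM), Etfb (33.2) and Ehhadh (5.84).

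The other flags fell on single genes. With donepezil they were library 1 for Maff (16.1 FPKM) and Fbxo30 (7.69), library 2 for Osmr (4.70) and Rsad2 (4.53) and library 3 for Timd4 (0.455). Encenicline 1 was flagged for Irx4 (11.0 FPKM), Phyhip (5.23), Trp53inp1 (3.62) and Myc (1.34), encenicline 2 for Angptl4 (8.81) and encenicline 4 for Osmr (1.86). The treatment field names another group for donepezil 1 and encenicline 1. Donepezil 1, which the field gives as saline, held 1186 FPKM of Pdk4, where the saline libraries held 101 to 197 FPKM. Which of the labels is right was not tested. Pdk4 was called with the libraries grouped by title, so its levels give no independent support for either label. In Phyhip, Irx4 and Trp53inp1 encenicline 1 lay nearest to donepezil of its group, and in Trp53inp1 within the donepezil range, while in Myc it lay farthest, and its Pdk4 level of 176 FPKM was in the range of its title group.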

How the results depend on the processing

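The number of calls, 125 with 59 higher, 66 lower and 22 at least 2-fold, depended on the settings. Grouping by the treatment field gave 0 calls, and leaving out donepezil 1 and encenicline 1 gave 27 (14 higher, 13 lower, 14 at 2-fold). Without a filter there were 46 (23 and 23, 14 at 2-fold), as TPM 53 (17 and 36), with library weights 363 (165 and 198, 38 at 2-fold) and with voom on recovered reads 190 (102 lower, 47 at 2-fold). Scaling without mitochondrially encoded genes gave 34 higher calls, and a pseudocount of 0.1 gave 40 at 2-fold. Beside the genes given above, TPM also ended the calls of G0s2, Slc16a1, Mgat3, Nr3c2 and Timd4 on the higher side. On the lower side it ended those of Ucp2, Errfi1 and Igf1r. Leaving out 1 library at a time gave 48 (without encenicline 2) to 177 (without donepezil 5) calls, 23 to 78 higher, 23 to 99 lower and 15 to 36 at 2-fold. Of the 125, 41 kept their call through all 10 omissions and 22 through every alternative but the treatment field. A fit of only the 10 libraries compared gave 116 calls (54 higher, 62 lower), and 84 of the 125 kept theirs. Among the genes named, Rrad, Hcn4, Chac1, Trp53inp1, Ehhadh, Gabarapl1, Slc16a1 and Mgat3 lost their call in that fit. Blocking on replicate number gave 114 calls; same-numbered libraries correlated at 0.00106 to 0.102, so the numbers are not shown to pair samples.

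Some values near 0 changed sign. Cd68 was 0.0925 with weights and -0.183 to 0.180 over the omissions of single libraries, 0.0506 without encenicline 2. Bche was 0.0218 with quantile normalization and -0.0414 to 0.0210 over the omissions (0.00967 without donepezil 5, 0.0133 without encenicline 4). Ccr2 was -0.0048 with a pseudocount of 1, -0.00966 without mitochondrially encoded genes, -0.0386 as TPM, -0.0606 without donepezil 1 and encenicline 1, -0.0867 by the treatment field and -0.108 (without donepezil 2) to 0.412 (without donepezil 4) over the omissions. Myh6 was -0.126 with quantile normalization, -0.0181 without mitochondrially encoded genes and -0.0340 as TPM. Adgre1 was -0.000473 without donepezil 1 and encenicline 1 and -0.0946 by the treatment field, and Nppb -0.195 (without donepezil 2) to 0.879 (without donepezil 4). The difference in mitochondrial share was -0.748 (without donepezil 4) to 1.46 percentage points, and -0.117 without encenicline 1. The cause was not tested. Levels near the pseudocount of 0.5 limit genes such as Timd4, Ache and Il1b.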

Other observations

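Clock genes were not called. In the circadian list limma called 0 of the 19, limma voom on the recovered reads called 0, and 2 had an unadjusted p under 0.05, with a median of 0.01. Per1, a clock repressor that glucocorticoids also induce, stood at 19.2, 21.7, 21.6, 17.5 and 15.6 FPKM with donepezil and 13.5, 9.76, 13, 13.2 and 10.5 FPKM with encenicline. The groups did not overlap, but Per1 missed the threshold (log2 fold change -0.65, SE 0.19, adjusted p = 0.122, limma with Benjamini-Hochberg adjustment). Erythroid markers varied widely within each group. Of 8 listed, 6 were tested, with a median log2 fold change of -0.57, and limma called 0 of the 6, limma voom on the recovered reads called 0, and 0 had an unadjusted p under 0.05. Hbb-bs, an adult beta globin, ranged over 77.7 to 237 FPKM with donepezil and 47.0 to 124 FPKM with encenicline, an overlap of the groups.

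Antigen presentation and cell division genes were not called. In the antigen presentation list limma called 0 of the 19, limma voom on the recovered reads called 0, and 2 had an unadjusted p under 0.05, with a median of 0.03; the peptide transporter Tap2 had a log2 fold change of 0.21, adjusted p = 0.228 and the immunoproteasome subunit Psmb8 0.20, adjusted p = 0.255 (limma with Benjamini-Hochberg adjustment). In the cell cycle list limma called 0 of the 23, limma voom on the recovered reads called 0, and 1 had an unadjusted p under 0.05, with a median of -0.12.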
